A study of Medicago truncatula with 12 samples.

Results

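The first 2 h of stress were examined in *Medicago truncatula*, a model legume, by comparing 3 RNA-seq libraries from seedlings at 2 h of cold, drought or salt with the 3 libraries of the same stresses at 0 h, which makes 6 of the 12 libraries of the series. All libraries were from wild type seedlings of the inbred line Jemalong A17 that were 4 weeks old. At 2 h, seedlings had been at 4 °C for cold, on dry filter paper for drought, or in nutrient solution with 300 mM NaCl for salt. At 0 h they had not been stressed, and each stress had its own 0 h library. Each stress and time had 1 library, so the 3 stresses stood in as replicates of a general early change and each 2 h library was paired with the 0 h library of its stress. No library of seedlings moved without stress, or kept for 2 h without stress, was used here. A change shared by the 3 stresses therefore cannot be told apart from an effect of transfer or of time of day, and a change seen under 1 stress has no replicate. The study's methods state that tests were done in triplicate. How these repeats relate to the 1 library of each stress and time, and whether a library came from 1 seedling or a pool, is not given in the sources used here.

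The expression values were FPKM, fragment numbers scaled to the length of the transcript and to the mapped fragments of the library, with 1 value per gene and library. Of the 54073 identifiers in the files, 24483 had an FPKM of at least 1 in any of the 6 libraries and were tested. The files pair no identifier with a gene name, so names are given only to the 25 *MtSWEET* genes and the *ACTIN* gene that the study lists by identifier. The labelled tissue was not checked against marker genes for the same reason.

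As background, cold, drying and high salt all limit the water that plant cells can use, and plants sense them partly through shared signals such as calcium, reactive oxygen and abscisic acid. Drought and salt both lower water potential, whereas salt adds ion toxicity and cold slows metabolism and stiffens membranes. Many plant transcripts also follow the circadian clock and move within hours without any stress. SWEET proteins let sugars pass membranes along their gradient. In *Arabidopsis*, clade III members export sucrose, some of them for phloem loading, and clade IV members lie in the vacuolar membrane and carry fructose among other sugars.

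The low FPKM values were whole multiples of the value of 1 fragment, and whole fragments were obtained for 37273 of 37274 genes above 0. The depth obtained in this way was 21224576 to 23898127 mapped fragments at 2 h, against 14880043 to 17692559 at 0 h, so each 2 h library was deeper than each 0 h library. Correlations between libraries over the genes tested were 0.917 to 0.94 among the 2 h libraries, against 0.98 to 0.992 among the 0 h libraries (Pearson, on log2(FPKM + 1)). The SD of a gene among the 3 libraries had a median of 0.26 on the log2 scale at 2 h and 0.12 at 0 h. The libraries of stressed seedlings were thus more spread than those taken before the stress. The median ratio of FPKM to the 6-library geometric mean was lower at 2 h than at 0 h by a log2 of 0.11 in cold, 0.10 in drought and 0.17 in salt. The shift averaged 0.13, so a log2 difference of the deposited FPKM lies lower by about this size than one after median-ratio rescaling.

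The question of a general early change was addressed with limma on log2(FPKM + 1), with stress as a block. After Benjamini-Hochberg adjustment over all genes tested, 0 of 24483 genes (0%) passed a threshold of 0.05, and the lowest adjusted p was 0.118. At an unadjusted p under 0.05 the same limma fit held 1711 genes that were higher at 2 h (6.99%) and 3384 that were lower (13.8%). Without the drought pair these numbers were 918 and 1517, and without the salt pair 1034 and 1618. The paired fit had 2 residual degrees of freedom, and an exact permutation test of 3 pairs for a single gene cannot go under a two-sided p of 0.25. When limma was run without the block, 365 genes passed, 135 of them higher at 2 h (0.551%) and 230 lower (0.939%), but 0 passed without the drought pair or without the salt pair. After rescaling by the median ratio, the unblocked fit called 140 genes higher and 78 lower, so the balance of directions depended on the scaling. These p-values measure the spread between 3 different stresses, which is not a spread between replicates. In whole seedlings, a lower share of a cell type and less RNA per cell cannot be told apart.

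The groups did not overlap for 2572 genes that were higher in every 2 h library than in every 0 h library (10.5% of those tested) and for 5895 genes that were lower (24.1%). After median-ratio rescaling these numbers were 3963 higher and 3760 lower. The median of the mean log2 difference over all genes was -0.09. The size of the difference, as a median over genes, was 0.24 in cold, 0.32 in drought and 0.42 in salt. The SD of a gene's difference among the 3 stresses had a median of 0.31, close to the median size of the mean difference itself, 0.28. The sign of the difference was the same in every stress for 3783 genes that were higher (15.5%) and 7886 that were lower (32.2%). A sign has no threshold, and these counts were not made after median-ratio rescaling. Their balance of directions is therefore not read.

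**Figure D1:**
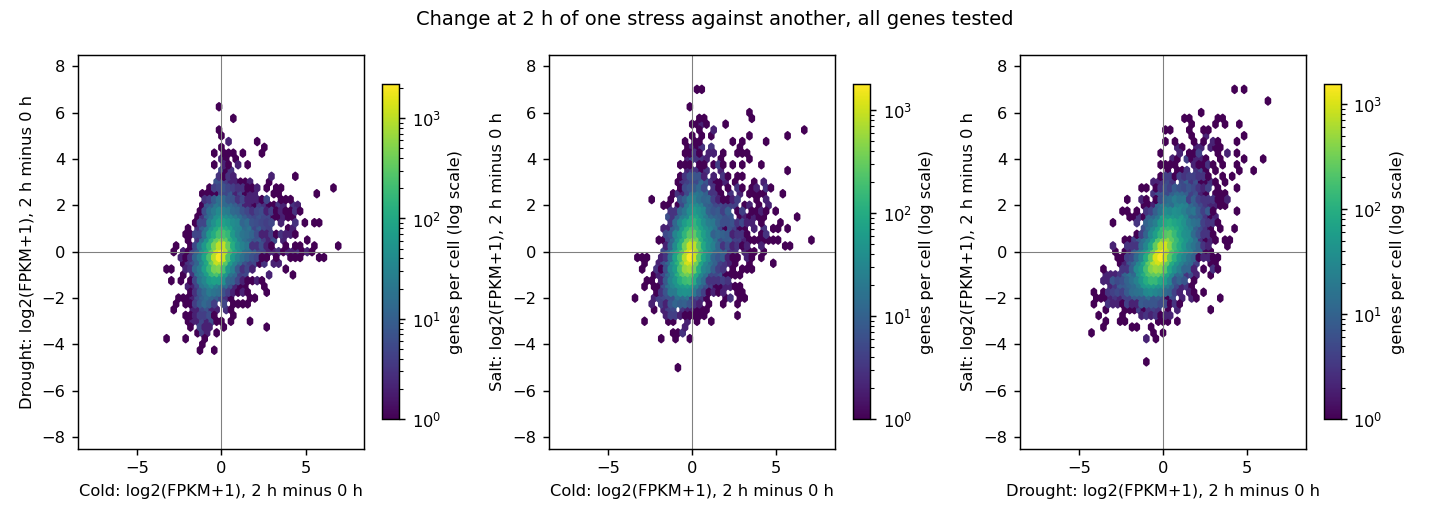
Difference of log2(FPKM + 1) between 2 h and 0 h in 1 stress (x axis) against another (y axis), for the 24483 genes tested, with the colour giving genes per cell on a log scale. The Pearson coefficient is highest for drought and salt (0.561) and lower for cold with either drought or salt (0.338 and 0.352).

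The changes of drought and salt resembled each other more than those of cold. Over the 24483 genes, the difference at 2 h of drought correlated with that of salt with a Pearson coefficient of 0.561, whereas cold gave 0.338 with drought and 0.352 with salt. When a mean FPKM of 5 or more was required (14699 genes), the coefficients were 0.65 for drought with salt, 0.388 for cold with drought and 0.398 for cold with salt. These 3 pairs share no library, but genes are not independent replicates, all pairs share the 2 h step itself, and no test was made of the difference between the coefficients.

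The single pairs were compared by a 2-fold difference of FPKM without a pseudocount, with no test, as each holds 1 library per time. In cold, 1660 genes were at least 2-fold higher at 2 h (6.78%) and 1819 at least 2-fold lower (7.43%). In drought, 2568 were higher (10.5%) and 2380 lower (9.72%). Salt had the most, with 3128 higher (12.8%) and 3544 lower (14.5%). In the salt pair the shallowest 0 h library (14880043 mapped fragments) was set against the deepest 2 h library (23898127). A gene at 0 in 1 library of a pair counted as past 2-fold, and the part of depth in this ranking was not tested. Between 2 of the 0 h libraries the same rule was met by 1100 genes for drought against cold (4.49%), 2127 for salt against cold (8.69%) and 2074 for salt against drought (8.47%). Differences of this size were thus also found between libraries of unstressed seedlings, though in fewer genes than in any stress.

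**Figure D2:**
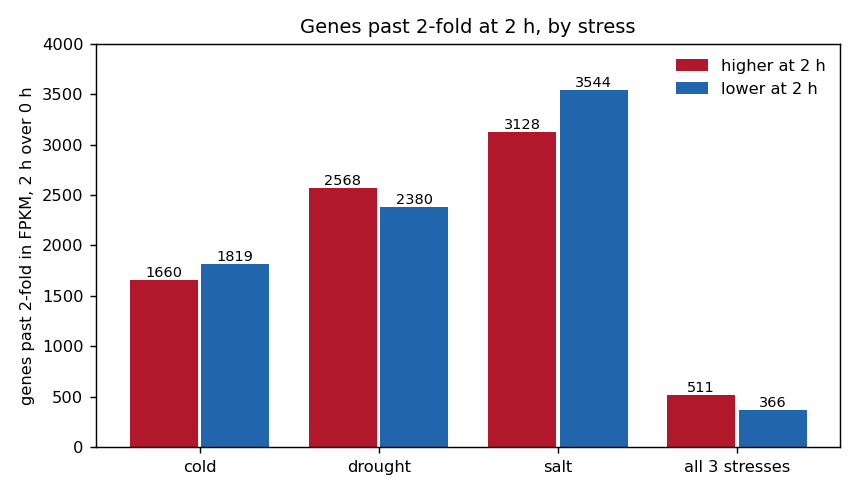
Number of genes (y axis) at least 2-fold higher (red) or lower (blue) in FPKM at 2 h than at 0 h, in each stress and in all 3 stresses together, 1 pair of libraries per stress. Salt had the most genes in either direction, and 511 higher and 366 lower genes were common to all 3 stresses.

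Of these genes, 511 were past 2-fold higher in every stress (2.09% of the genes tested) and 366 past 2-fold lower in every stress (1.49%). Pairwise, 874 genes were 2-fold higher in drought and salt but not in cold, against 266 in cold and drought but not salt and 353 in cold and salt but not drought. The lower genes were divided alike, with 806, 221 and 382 genes in the same 3 classes. Genes past 2-fold in salt alone numbered 1390 higher and 1990 lower. A gene could also differ in opposite directions, and 1003 genes were 2-fold higher in 1 stress and 2-fold lower in another. The most frequent form with all 3 stresses involved was lower in cold and higher in both drought and salt, with 125 genes, against 48 genes that were higher in cold and lower in both others.

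The 511 genes higher in every stress had mostly low values before the stress, which the choice of genes itself favours. The 2-fold rule used these 0 h values, and the filter kept genes that reached it at 2 h alone. The same holds for the 2 h values of the lower genes, so neither is read as a trait of the genes. Their median FPKM was 2.43, 3.05 and 4.41 at 2 h of cold, drought and salt, against 0.438, 0.51 and 0.416 at 0 h. For 74 of the 511 no fragment was found in any 0 h library. These libraries were shallower than those of 2 h, which makes a count of 0 more likely. The 366 genes lower in every stress had a median FPKM of 1.48, 0.715 and 1.15 at 2 h of cold, drought and salt, against 4.39, 4.21 and 4.28 at 0 h. For 4 of them no fragment was found in any 2 h library. At least 10 fragments in each library of the higher group were found for 332 of the 511 and 307 of the 366, so the rest relied on few fragments. Only 4 genes had no fragment at 0 h and at least 10 in each 2 h library, and 1 gene had none at 2 h and at least 10 in each 0 h library.

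The size of the difference was not the same under each stress. Among the 511 genes, 258 had their largest difference in salt, 140 in cold and 113 in drought, and 384, 325 and 317 of them passed 4-fold in these stresses. Among the 366 lower genes the largest difference was in drought for 163, in salt for 153 and in cold for 50. Past 4-fold were 200 in drought, 166 in salt and 85 in cold. Around the threshold, 69 higher genes had their smallest ratio between 2 and 2.2, and another 105 missed the threshold with one between 1.8 and 2. For lower genes these numbers were 110 inside and 180 outside.

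The abundance and the transcript length of both sets are given as a description. Among genes with a mean FPKM under 1 over the 6 libraries, 7.16% were 2-fold higher in every stress and 3.67% lower. Such a gene was kept only through a library where it reached an FPKM of 1, so the filter itself favours large differences in this class, and its shares cannot be set against those of the others. In the class from 5 to 20 these shares were 1.08% and 1%, and from 20 to 100 they were 1.9% and 0.59%. Of 876 genes with a mean of at least 100, 7 were higher and 3 lower in every stress. The transcript length behind the FPKM had a median of 952 bp in the higher set and 1121 bp in the lower set, against 1590 bp over all genes tested. With at least 10 fragments per library required, the medians were 1248 bp and 1313 bp, against 1697 bp over the 22389 genes with that many.

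Positions were taken from the chromosome digit of the identifiers. The share of genes tested that were higher in every stress was 1.59% on chromosome 1 and 2.48% on chromosome 2, with the other 6 between these values. The share of lower genes was 1.23% on chromosome 8 to 1.69% on chromosome 4. Among the 488 higher genes with a chromosome, 88 (18%) had the next or previous identifier tested in the same set, whereas 4.02% of all such genes lay beside a member. For the lower set, 65 of 346 (18.8%) had a neighbour in the set, against 2.86% of all genes. How the authors counted fragments shared between similar neighbouring copies is not given in the sources used here, and its part in these numbers was not tested.

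The levels of both sets were also followed to 6 and 12 h, times that did not enter the choice of genes. In cold the median FPKM of the 511 genes was 0.438, 2.43, 1.53 and 1.06 at 0, 2, 6 and 12 h. In drought it was 0.51, 3.05, 4.24 and 2.8, and in salt 0.416, 4.41, 3.7 and 3.86. Since the genes were chosen for high values at 2 h, a lower level later can follow from the choice alone, and nothing is read from the fall after 2 h in cold. At 12 h the median was 1.06 in cold, against 2.8 in drought and 3.86 in salt. The 366 lower genes had medians of 4.39, 1.48, 1.36 and 1.62 over these times in cold. In drought they had 4.21, 0.715, 0.424 and 0.3, and in salt 4.28, 1.15, 1.18 and 0.516. At 12 h the median was thus above 1.5 in cold and under 0.6 in drought and salt. These later levels are set against the same 0 h libraries and were not tested.

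**Figure D3:**
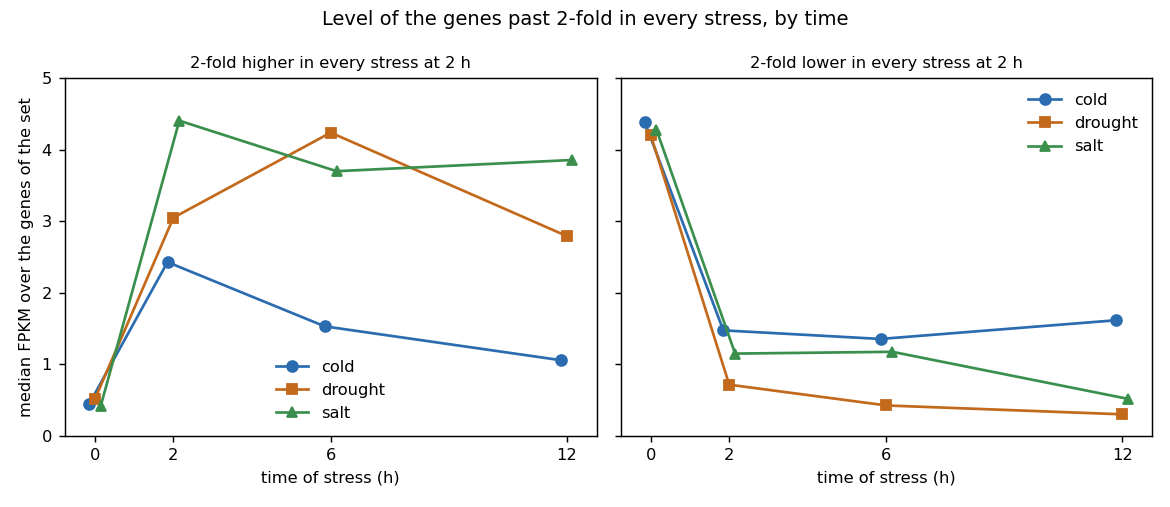
Median FPKM (y axis) of the 511 genes past 2-fold higher (left) and the 366 past 2-fold lower (right) in every stress at 2 h, by time of stress in hours (x axis), 1 library per point, with points set slightly apart. The genes were chosen by their values at 2 h. In the left panel cold is 1.06 at 12 h, while drought and salt are 2.8 and 3.86. In the right panel all stresses are under 2 from 2 h on.

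A few genes show how far a change shared by the stresses could go. The largest mean log2 differences among genes past 2-fold in every stress, with an FPKM of at least 5 in each library of the higher group, were those of the identifiers MTR_1g101600 and MTR_7g108650 for higher values and MTR_4g045990 and MTR_5g076340 for lower values. These 4 were chosen after their values were seen, and nothing is known here of what they encode.

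MTR_1g101600 on chromosome 1 had 135, 8.69 and 53.9 FPKM at 2 h of cold, drought and salt (1920, 113 and 790 fragments), against 0.302, 0.553 and 0.548 FPKM at 0 h (3, 6 and 5 fragments). The groups were far apart, but the 2 h values differed by more than 10-fold among themselves, with cold the highest. Its mean difference on the log2(FPKM + 1) scale was 4.83 ± 0.78 (SE, adjusted p = 0.137 from limma). With 3 fragments at 0 h of cold, the log2 ratio of 8.8 in cold had a 95% counting interval of 7.26 to 11.08. Later, its level in cold was 31.2 at 6 h and 3.85 at 12 h, whereas in drought it was 43.8 and 60.7.

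MTR_7g108650 on chromosome 7 had 140, 20.9 and 105 FPKM at 2 h of cold, drought and salt, against 1.79, 2.57 and 2.53 FPKM at 0 h, where it had 30 to 47 fragments. The order of the stresses was the same as for the first gene, with cold highest and drought lowest at 2 h. Its mean difference was 4.4 ± 0.6 (SE, adjusted p = 0.137 from limma, and 0.0417 without the block). At 12 h it was 20.8 in cold, 255 in drought and 104 in salt, so that drought held the highest level by then.

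MTR_4g045990 on chromosome 4 had 2.3, 0.955 and 6.52 FPKM at 2 h of cold, drought and salt, against 33.2, 27.1 and 27.2 FPKM at 0 h. Its mean difference was -3.04 ± 0.4 (SE, adjusted p = 0.137 from limma, and 0.0417 without the block). The level was lowest in drought, with 0.07 FPKM at 6 h, and in salt it was back at 12.1 by 6 h. MTR_5g076340 on chromosome 5 was lower to a like extent in the 3 stresses, with 0.432, 0.565 and 1.17 FPKM at 2 h of cold, drought and salt, against 8.9, 7.46 and 17.3 FPKM at 0 h. Its mean difference was -2.77 ± 0.2 (SE), with an adjusted p of 0.118 from limma, the lowest value, held by 47 genes, and 0.0273 without the block. The log2 ratios of cold, drought and salt were -4.37, -3.72 and -3.89. They rested on 5, 6 and 14 fragments at 2 h. Their counting intervals were wide, at -6.03 to -3.08, -5.22 to -2.52 and -4.80 to -3.09.

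**Figure D4:**
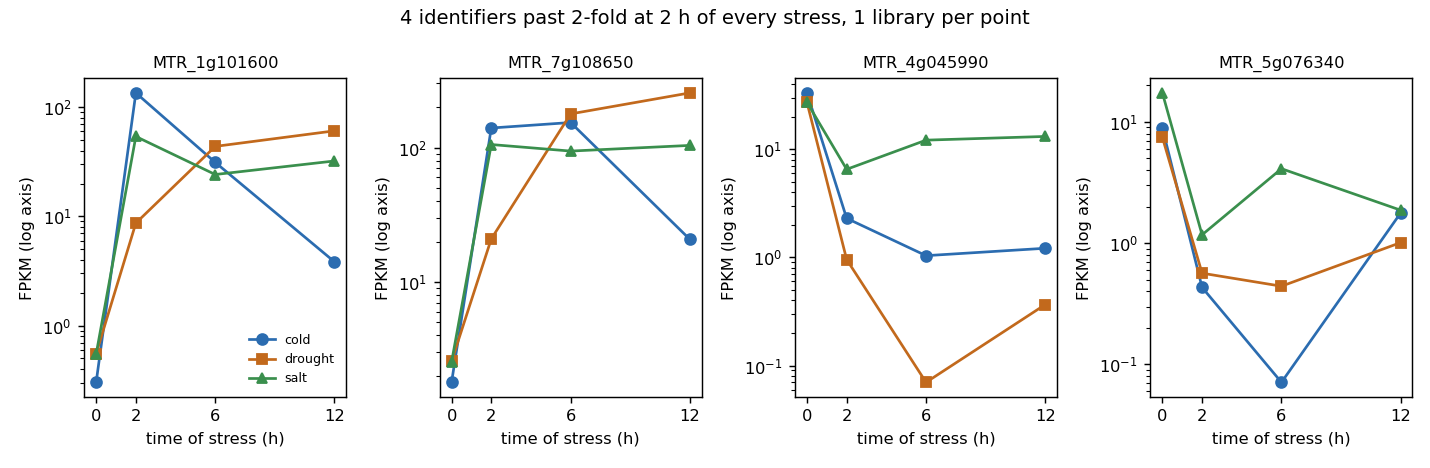
FPKM on a log axis (y) of 4 identifiers past 2-fold in every stress, by time of stress in hours (x axis), 1 library per point. MTR_1g101600 and MTR_7g108650 are above their 0 h values in every stress at 2 h, and MTR_4g045990 and MTR_5g076340 below them. For MTR_1g101600 and MTR_7g108650, drought is the lowest of the 3 stresses at 2 h and the highest at 6 and 12 h.

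Among the 25 *MtSWEET* genes, which carry sugars across membranes, 11 had an FPKM of at least 1 in any of the 6 libraries. The other 14 stayed at or under 0.452 FPKM. Of the 11 genes, 0 passed the test after adjustment (0% of all genes did) and 0 had an unadjusted p under 0.05 in limma, against 6.99% higher and 13.8% lower of all genes tested. Without the block 2 genes, *MtSWEET9b* and *MtSWEET15d*, had an unadjusted p of 0.0308 and 0.0417 in limma. The number was also 2 without a filter or without an intensity trend, and 1 with a pseudocount of 0.1 or 0.5, after TPM or median-ratio rescaling, with all 12 libraries, and without the cold or the drought pair. Adjusted p-values were 0.241 to 0.974. The median of their mean log2 differences was -0.05, against -0.09 over all genes tested, with 5 genes above 0 and 6 below, and after median-ratio rescaling these medians were 0.075 and 0.013. In single pairs, 7 of the 11 passed 2-fold in at least 1 stress. Of all 24483 genes tested, 4841 were 2-fold higher in at least 1 stress and 5602 were 2-fold lower, with 1003 counted in both. *MtSWEET9b* alone passed 2-fold in every stress, as did 2.09% of the genes tested in the same direction. It passed the filter through its salt library at 2 h only.

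The abundant *MtSWEET* genes did not differ by 2-fold in every stress, and several lay above their 0 h value in one stress and below it in another. *MtSWEET2b* (MTR_2g073190), a clade I member, had 49.2, 13 and 22.6 FPKM at 2 h of cold, drought and salt, against 17.9, 17.9 and 17.7 at 0 h. Before the stress the 3 libraries were nearly equal, whereas at 2 h cold and salt were above and drought below all of them. The mean log2 difference was 0.44 ± 0.37 (SE, adjusted p = 0.512 from limma), and it was -0.051 without the cold pair and 0.87 without the drought pair. *MtSWEET12* (MTR_8g096320), of the sucrose-exporting clade III, had 83, 87.5 and 41.9 FPKM at 2 h of cold, drought and salt, against 74.1, 73.9 and 74.2 at 0 h. Only the salt library was lower, and without the salt pair the mean difference was 0.20 in place of -0.14, while it was -0.28 without the cold pair and -0.32 without the drought pair. Its counting interval in salt, -0.91 to -0.73 as a log2 ratio, lay below no change.

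*MtSWEET13* (MTR_3g098910), a further clade III gene, had 83.9 and 88.1 FPKM at 2 h of cold and salt but 29.8 at 2 h of drought, against 50.5, 46.4 and 55.8 at 0 h of cold, drought and salt. The log2 ratios were 0.73 in cold and 0.66 in salt and -0.64 in drought, and the mean difference was 0.25 ± 0.3 (SE, adjusted p = 0.648 from limma). It was 0.014 without the cold pair, 0.69 without the drought pair and 0.05 without the salt pair. *MtSWEET16* (MTR_2g436310), the clade IV member, showed the same order at 2 h of salt over cold over drought, with 29.2, 17.4 and 9.73 FPKM at 2 h of salt, cold and drought, against 11.8, 15.7 and 16.3 at 0 h. The ratio reached 2-fold in salt alone (log2 ratio 1.31, counting interval 1.08 to 1.55), and without the salt pair the mean difference was -0.27 in place of 0.23, while it was 0.69 without the drought pair. Neither gene separated 2 h from 0 h, since their groups overlapped.

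Another clade I gene, *MtSWEET3c* (MTR_1g028460), had nearly the same level in drought and salt at 2 h. Its FPKM was 14.6, 6.26 and 6.27 at 2 h of cold, drought and salt, against 13.7, 12.5 and 14 at 0 h. The log2 ratio was -0.998 in drought (counting interval -1.29 to -0.71) and -1.16 in salt (-1.44 to -0.88), whereas cold gave 0.09 (-0.13 to 0.32). Its mean difference, -0.62 ± 0.26 (SE), had an adjusted p of 0.266 from limma and was -0.97 without the cold pair and -0.40 without the salt pair. The level of *MtSWEET14* (MTR_8g096310) was the most even of the clade III genes, with 22.2, 17.5 and 20.4 FPKM at 2 h of cold, drought and salt, against 20.4, 18.9 and 22.8 at 0 h. The mean difference of *MtSWEET14* was -0.05 ± 0.13 (SE), and it was 0.075 after median-ratio rescaling. *MtSWEET2a* (MTR_8g042490) had 5.13, 5.34 and 5.2 FPKM at 2 h of cold, drought and salt, against 5.32, 4.1 and 6.28 at 0 h, with overlapping groups.

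The genes of low abundance rested on few fragments. *MtSWEET9b* (MTR_7g007490), of clade III, had 0.417, 0.966 and 1.21 FPKM at 2 h of cold, drought and salt (8, 17 and 24 fragments), against 0.0745, 0.341 and 0.0811 at 0 h (1, 5 and 1 fragments). All 2 h values were above all 0 h values, as for 10.5% of the genes tested. The counting interval of its log2 ratio reached -0.42 to 7.95 in cold. Its mean difference of 0.66 ± 0.26 (SE) had an adjusted p of 0.241 from limma, the lowest of the family, and the difference was 1.01 with a pseudocount of 0.5 and 1.90 with a pseudocount of 0.1. *MtSWEET15d* (MTR_7g405710) went the other way, with 12, 2 and 3 fragments at 2 h of cold, drought and salt, against 15, 11 and 11 at 0 h. It passed the filter through the 0 h library of cold only, and its mean difference of -0.55 (adjusted p = 0.258 from limma) was -0.85 with a pseudocount of 0.5 and -1.55 with a pseudocount of 0.1. Of its 3 log2 ratios, that of cold, -0.84, had a counting interval of -2.07 to 0.36, which held no change.

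In *MtSWEET15c* (MTR_7g405730), the 0 h libraries themselves differed more than those of 2 h, with 1.33, 1.95 and 2.29 FPKM at 2 h of cold, drought and salt, against 2.51, 3.34 and 0.949 at 0 h. *MtSWEET1a* (MTR_1g029380) had 0.649, 1.37 and 2.28 FPKM at 2 h of cold, drought and salt, against 1.57, 1.54 and 1.2 at 0 h. Its mean difference of -0.05 became 0.022 after median-ratio rescaling, and the 3 stresses gave log2 ratios of -1.27, -0.17 and 0.93. *ACTIN* (MTR_3g095530), the control gene of the qRT-PCR, had 265, 253 and 229 FPKM at 2 h of cold, drought and salt, against 264, 275 and 262 at 0 h, a mean log2 difference of -0.10 ± 0.11 (SE, adjusted p = 0.589 from limma) that was 0.023 after median-ratio rescaling.

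For some of these genes qRT-PCR primers were designed in the study, and they are shown for the control gene and for *MtSWEET13* and *MtSWEET16*, both lowest in drought at 2 h. They are given 5′ to 3′ in lower case with no part in capitals. The FPKM values were not measured with these primers, and they are scaled to transcript lengths of 2894 bp for *ACTIN*, 1311 bp for *MtSWEET13* and 1046 bp for *MtSWEET16*.
ACTIN forward: aaaaggatgcctatgttggtg
ACTIN reverse: taagtggagcctcagttagaagta
MtSWEET13 forward: tgtgggatttggcacgattg
MtSWEET13 reverse: ccacaacgttcgggagagta
MtSWEET16 forward: ggctcacctcttgctgtcat
MtSWEET16 reverse: tataacaaccaaacgccgcc

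**Figure D5:**
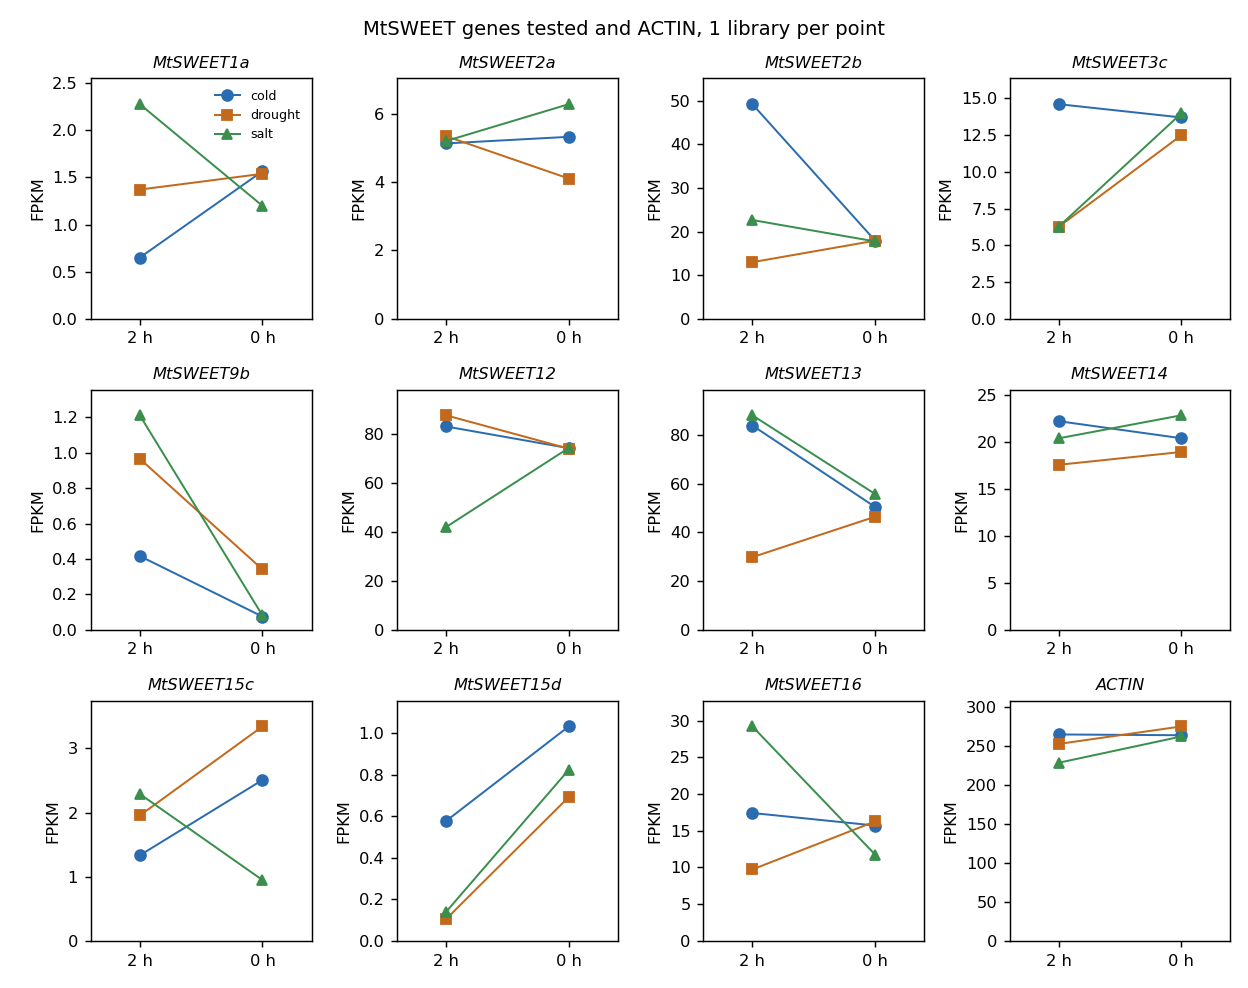
FPKM (y axis, from 0) of the 11 *MtSWEET* genes tested and *ACTIN* at 2 h (left of each panel) and 0 h (right), 1 library per point and 1 line per stress. The 0 h points lie close together for *MtSWEET2b* and *MtSWEET12*, while the 2 h points spread from 13 to 49.2 and from 41.9 to 87.5. The points of 2 h and 0 h are fully apart for *MtSWEET9b* (higher at 2 h) and *MtSWEET15d* (lower) only. Of all genes tested, 10.5% were apart in the higher direction and 24.1% in the lower.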

How the data were processed

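*M. truncatula* seedlings were sequenced by the authors under 3 stresses at 0, 2, 6 and 12 h, with 1 library for each of the 12 conditions. For the deposited FPKM values, the authors aligned reads with Tophat 2.1.0 to Mt4.0v1 and used StringTie 2.0, per the study's methods. The submitters' processing notes also name HTSeq without a version, and the labels a kit for tags from the 3′ end of transcripts, which differs from values divided by transcript length. Division by transcript length does not alter plain ratios of FPKM within a gene. It does bear on the filter at an FPKM of 1, on differences of log2(FPKM + 1) and on the abundance classes. The size of its part in these was not tested. Groups and pairs were taken from the labels of time and stress.

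Genes were kept where FPKM reached 1 in any of the 6 libraries of 0 and 2 h. Values were transformed to log2(FPKM + 1), and limma 3.58.1 in R 4.3.3 was used with an intensity trend, stress as a block and Benjamini-Hochberg adjustment. A difference is 2 h minus 0 h. No count model was fitted to FPKM. Same-stress libraries did not deviate together (correlations of deviations from the group means -0.0158, -0.0197, and -0.019), so the pairing rests on the labels alone. Fragments were recovered from the FPKM with a tolerance of 0.01, and 95% intervals of single ratios are Clopper-Pearson intervals that cover counting error only. The 2-fold rule used a ratio of at least 2 or at most 0.5, and a gene at 0 in 1 library of a pair counted as past it. The limma fit was tested on simulated data with the same change in all 3 pairs, which is simpler than 3 different stresses. Further tools were scipy 1.17.1, pandas 2.3.3 and numpy 2.4.6 in Python 3.11.15, with matplotlib 3.10.9 for plots.

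Of the identifiers, 0 of 54073 matched the RefSeq gene table, so lists by product name, marker genes and promoter motifs were not run. The 26 named genes were matched by replacing the prefix of the study's identifiers. For the 25 *MtSWEET* genes, values were equal to those of the study's own table within a relative 1e-05. The rule for named genes was the *MtSWEET* genes that were tested, *ACTIN*, and the 2 identifiers with the largest difference in each direction among those that passed limma with an FPKM of at least 5 in each library of the higher group. Since 0 passed, identifiers past 2-fold in every stress were used in their place. Genes, lists and comparisons were chosen with earlier results of these data known.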

Additional observations from a re-analysis of the deposited data

How the results depend on the processing

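The count of 0 genes past the adjusted threshold of limma was the same with a pseudocount of 0.1 or 0.5, without a filter, with a mean FPKM of at least 5, after median-ratio or TPM rescaling, without an intensity trend, with a robust prior, and without replicate 1, 2 or 3 (the cold, drought or salt pair), a range of 0 to 0. It was 365 with no replicate block, 62 with all 12 libraries in the fit (35 higher, 27 lower), and 218 with neither block nor deposited scaling. Without the block and without replicate 1, 2 or 3 it was 0 to 266, the 266 without the cold pair. For these fits the cause was not tested, other than that the block leaves fewer degrees of freedom. The unadjusted counts were 918 to 2293 higher and 1517 to 3326 lower without each pair, and 1007 to 2435 higher and 2171 to 4072 lower without the block as well; the lowest values were without the drought pair, and those without the salt pair were 1034 and 1618 with the block. After median-ratio rescaling, 2138 genes were lower and 53.3% of the unadjusted calls were higher, against 33.6% as deposited; without the block as well, 2767 were higher.

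The count of genes past 2-fold in every stress was 910 higher and 1080 lower with a threshold of 1.5, 267 and 94 with 3, 178 and 143 with a pseudocount of 1, and 195 and 122 with a mean FPKM of at least 5. Against the mean of the 3 libraries of 0 h it was 528 higher and 528 lower. After median-ratio rescaling it was 601 higher and 282 lower, so the balance of directions depended on the baseline and the scaling. With at least 10 fragments in each library of the higher group the count was 332 higher. Without each pair it was 777 to 1385 higher and 587 to 1172 lower, as fewer pairs have to agree, with 864 and 748 without the drought pair and the highest counts without cold. Genes whose groups did not overlap were 3963 higher and 3760 lower after median-ratio rescaling.

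Among single genes, none of which passed the adjusted test, a sign turned for *MtSWEET1a* (0.022), *MtSWEET14* (0.075), and *ACTIN* (0.023) after median-ratio rescaling. Without the cold pair it turned for *MtSWEET1a* (0.24), *MtSWEET2b* (-0.051), and *MtSWEET15c* (0.10), without the drought pair for *MtSWEET2a* (-0.14) and *MtSWEET15c* (0.084), and without the salt pair for *MtSWEET12* (0.20), *MtSWEET14* (0.0076), and *MtSWEET16* (-0.27). MTR_5g076340 also passed with all 12 libraries (adjusted p = 0.0334 from limma). The fragment filter, the 2-fold counts without each pair, the robust prior, the unblocked fits under rescaling and without each pair, and the rescaled count of genes that do not overlap were added after seeing the data. With 1 library per stress and time, depth limits the low *MtSWEET* genes most.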
